A study of Mus musculus with 2 samples.

Results

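The protein-coding olfactory receptor genes (symbol Olfr followed by a digit, GENCODE M21 annotation of the mm10 mouse genome) that lie near a CTCF peak in newborn mouse intestine are described here, set beside the Olfr genes that have none. CTCF, a protein with zinc fingers, recognises a long motif in DNA. A gene was taken where the summit of an optimal peak lay within 10 kb of any of its transcription start sites (TSSs), on chromosomes 1 to 19. Of 1128 such Olfr genes, 142 qualified (12.6%, 95% Wilson interval 10.8 to 14.7) and 986 did not. The same 10 kb rule called 15476 of all 20807 protein-coding genes, 74.4%. A gene with more TSSs can be searched over more sequence, and the number of TSSs was not matched between these sets. Because the peaks themselves chose the 142 genes, their count and the signals below are descriptions and carry no test.

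The data are CTCF chromatin immunoprecipitation followed by sequencing (ChIP-seq) of whole intestine from mice of strain B6NCrl at postnatal day 0, in 1 group of 2 biological replicates with no other genotype, treatment or age. Each replicate was pulverized tissue pooled from several dissections, with no sex recorded, so the replicates are pools and the many cell types of the intestine are mixed in them. The lists used included the optimal list of 73465 peaks that passed the authors' reproducibility threshold (IDR) and the conservative IDR list of 70556. The others were the list of the pooled replicates and 1 list per replicate, with 300000 peaks each. Whether the optimal list was thresholded between the replicates or on their pooled reads is not given in the sources used here. Peak strength is the authors' signal value, an enrichment per peak whose normalization is not given in the sources used here. Read depth is unknown from the lists.

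As background, olfactory receptors are G-protein coupled receptors that detect odorants, and each olfactory sensory neuron of the nose expresses a single one of them from a single allele. Their genes form the largest gene family of the mouse and stand in long clusters in which near-identical copies are common. CTCF holds cohesin at its sites, and the direction of its motif on the DNA is known to matter for which sites form the ends of a loop. Most of the receptors have no known role in the gut, although a few, Olfr78 among them, detect short-chain fatty acids outside the nose.

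The motif sites under the 6 strongest peaks near Olfr genes are shown first, since these peaks carry the highest signals of the set. Each line gives the mm10 reference sequence on the strand of the motif with 20 bases on either side, and capitals mark the 19-base CTCF motif found by a matrix trained on other peaks. The first peak lies within 10 kb of a TSS of both Olfr94 and Olfr95, and the last 2 within 10 kb of one of Olfr750. The summits of those last 2 also lie 5.834 and 7.299 kb from a TSS of Rnase12.
Olfr94 and Olfr95, chr17:37203794-37203852, minus strand: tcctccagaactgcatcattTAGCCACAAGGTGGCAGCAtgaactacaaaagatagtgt
Olfr649, chr7:104199967-104200025, plus strand: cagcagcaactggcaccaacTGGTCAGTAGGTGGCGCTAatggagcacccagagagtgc
Olfr90, chr17:37083507-37083565, plus strand: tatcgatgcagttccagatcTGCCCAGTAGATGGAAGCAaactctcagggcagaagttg
Olfr283, chr15:98389990-98390048, minus strand: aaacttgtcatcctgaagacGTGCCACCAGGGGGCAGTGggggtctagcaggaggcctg
Olfr750, first site, chr14:51063476-51063534, minus strand: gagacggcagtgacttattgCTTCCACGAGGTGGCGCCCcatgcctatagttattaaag
Olfr750, next site, chr14:51064937-51064995, minus strand: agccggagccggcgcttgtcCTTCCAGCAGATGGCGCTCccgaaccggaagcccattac

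The next sites lie deepest inside a cluster, counted in receptor genes, and the last of them is the site that lies under the start of Olfr628. Olfr1066, Olfr1161 and Olfr1177-ps belong to the largest cluster, and Olfr243 and Olfr628 to the cluster on chromosome 7 that also holds the beta-globin genes. The best match at Olfr1161 scored 4.88, under the motif threshold of 9.31, and is therefore printed without capitals.
Olfr1066, chr2:86464873-86464931, minus strand: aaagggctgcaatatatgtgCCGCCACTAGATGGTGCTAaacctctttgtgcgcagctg
Olfr1161, chr2:88024762-88024820, plus strand: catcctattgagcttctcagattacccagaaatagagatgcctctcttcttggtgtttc
Olfr1177-ps, chr2:88356453-88356511, plus strand: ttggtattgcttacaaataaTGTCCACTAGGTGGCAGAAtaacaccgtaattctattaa
Olfr243, chr7:103712164-103712222, plus strand: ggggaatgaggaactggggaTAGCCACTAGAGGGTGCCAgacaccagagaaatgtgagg
Olfr628, chr7:103731922-103731980, minus strand: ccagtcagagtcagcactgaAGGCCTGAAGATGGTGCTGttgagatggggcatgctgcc

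The Olfr genes were ordered along each chromosome and joined into a cluster wherever under 500 kb separated neighbouring gene bodies, which gave 44 clusters and 9 genes that stood alone. A gene near a CTCF peak occurred in 34 of the 44 clusters. The other 10 clusters held 163 genes. The genes near a peak were not spread evenly over the clusters. The cluster that runs from Olfr543 to Olfr692 on chromosome 7 had 31 of its 129 genes near a peak (24.0%), whereas the largest cluster, from Olfr987 to Olfr1274-ps on chromosome 2, had 4 of 227 (1.76%). The 95-gene cluster from Olfr160 to Olfr986 on chromosome 9 had 6 genes near a peak. The 66-gene cluster that starts with Olfr1417 on chromosome 19 had 7. The largest cluster with none ran from Olfr9 to Olfr827 on chromosome 10 and held 60 genes. Olfr1, the first gene of the family by number, also had no summit within 10 kb.

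**Figure D1:**
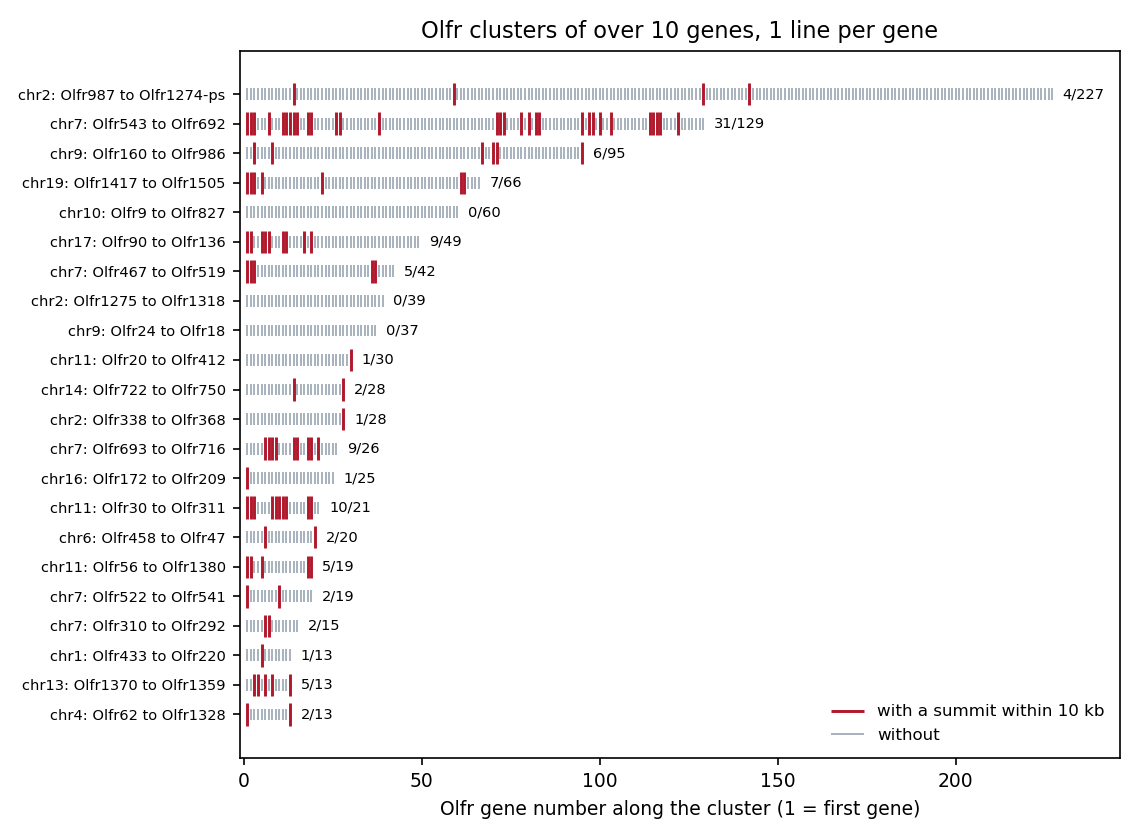
Each row is 1 of the 22 Olfr clusters of over 10 genes, with the genes in order along the horizontal axis (gene number from 1 at the first gene), where tall red lines are genes with an optimal CTCF summit within 10 kb of a TSS and short grey lines are genes without one, and the numbers at the right give the genes with a summit over all genes. Red lines often stand at the first or last gene or side by side, as in the row of 129 genes with 31 red lines, and 3 rows, of 60, 39 and 37 genes, have none.

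Genes near a peak stood towards the ends of their clusters. Of the 88 genes that were first or last in a cluster, 37 had a summit within 10 kb (42.0%, 32.3 to 52.5), against 104 of 1031 interior genes (10.1%, 8.39 to 12.1). Put the other way, end genes made up 26.1% of the genes near a peak and 5.17% of the genes without one. Both shares were below the 74.4% of all protein-coding genes. Of the 9 genes that stood alone, 1 had a summit, Olfr718-ps1. Genes of a cluster share peaks and surroundings and are not independent, so these intervals cover counting error only.

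Pooled over all clusters, the share near a peak was lower in each deeper class. It was 20.9% of 134 genes that had 1 or 2 genes between them and the nearer end, 12.2% of 147 genes at 3 to 5, and 10.7% of 177 at 6 to 10. It was 8.54% of 199 genes at 11 to 20, 7.1% of 169 at 21 to 40 and 4.88% of 205 genes deeper than 40. Neighbouring intervals in this order overlapped, except between the end genes and those at 1 or 2. The genes near a peak stood a median of 4 genes from the nearer end (quartiles 0 and 12), against 12 genes (4 and 32) for those without. In distance along the chromosome the medians were 113 kb against 375 kb. The genes near a peak also stood in smaller clusters, of a median of 26 genes against 60, and a smaller cluster leaves fewer steps to an end.

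The step classes mix clusters that differ in their share, and 145 of the 205 genes deeper than 40 belong to the cluster that starts with Olfr987. In the Olfr543 cluster alone the share did not fall with each deeper class. A summit was near 1 of 2 end genes, 2 of 4 genes at 1 or 2, 0 of 6 at 3 to 5 and 3 of 10 at 6 to 10. Deeper in it was near 10 of 20 at 11 to 20 (29.9 to 70.1%), 8 of 40 at 21 to 40 (10.5 to 34.8%) and 7 of 47 beyond 40 (7.41 to 27.7%). Those 7 are most of the 10 genes near a peak that stood deeper than 40. In the other clusters of over 10 genes the share was 38.1% of 42 end genes (25 to 53.2) and 14.3% of 84 genes at 1 or 2 (8.37 to 23.3). It was 12.7% at 3 to 5, 9.58% at 6 to 10, 3.91% at 11 to 20, 3.1% at 21 to 40 and 1.9% of 158 genes beyond 40. These clusters too were pooled.

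**Figure D2:**
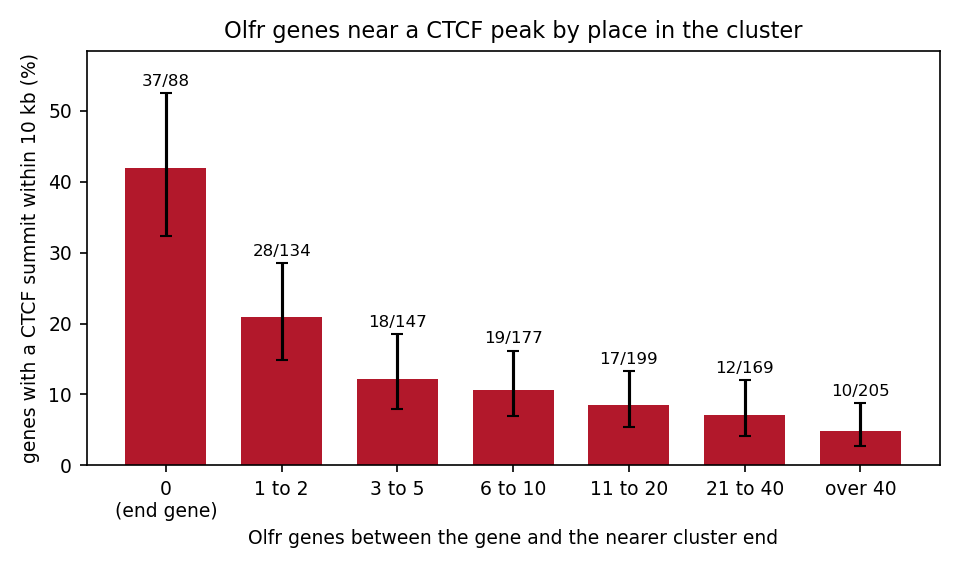
Bars give the percentage of Olfr genes with a CTCF summit within 10 kb of a TSS by the number of Olfr genes between the gene and the nearer end of its cluster; error bars are 95% Wilson intervals, and the numbers above are genes with a summit over genes in the class. The share is 42.0% at the end gene and 4.88% beyond 40 genes.

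Small clusters hold a larger proportion of end genes, and end genes had the higher share at each cluster size. In the 22 clusters of 2 to 10 genes, 45.5% of end genes and 26.2% of interior genes had a summit, with overlapping intervals (31.7 to 59.9 and 16.8 to 38.4). In the 17 clusters of 11 to 50 genes the shares were 41.2% and 10.7%. In the 5 clusters of over 50 genes they were 30.0% of only 10 end genes, which gave an interval of 10.8 to 60.3, and 7.94% of interior genes. Peaks did not mark both ends of most clusters: 8 of the 44 had a summit near both end genes, 21 near 1 of them and 15 near neither. Without the Olfr543 cluster, which gave the most genes, the shares were 41.9% of end genes and 8.19% of interior genes.

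The genes near a peak often stood side by side, and several could share a peak. The 142 genes formed 85 runs, of which 49 were single genes, and the other 93 genes stood in runs of 2 or more. The longest run was a whole cluster, the 6 genes from Olfr70 to Olfr155 on chromosome 4. Its members in order had strongest signals of 90 at Olfr70, 380 at Olfr71, 361 at Olfr159, 232 at Olfr156, 47.0 at Olfr157 and 426 at Olfr155. Within its 163 kb lay 12 peaks, or 73.7 per Mb. Other clusters with every gene near a peak were the 3 genes from Olfr372 to Olfr374 on chromosome 8, Olfr222 with Olfr223, and Olfr1373 with Olfr1371, both pairs on chromosome 11. On that chromosome 25 of 82 Olfr genes were near a peak, against 5 of 294 on chromosome 2. The cluster from Olfr30 to Olfr311 alone gave 10 of its 21 genes. These clusters and pairs were singled out after their values had been seen.

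In all, 143 distinct peaks lay within 10 kb of an Olfr gene. Of these, 107 reached 1 gene and 36 reached 2 or 3. The most shared peaks each reached 3 genes. One of them lay near Olfr543, Olfr544 and Olfr545 at signal 37.1, and the other near Olfr700, Olfr701 and Olfr702 at signal 159. Olfr544 is known to bind azelaic acid. Most genes, 111 of 142, had a single summit, 24 had 2, 6 had 3 and 1 had 4. The gene with 4 was Olfr15 on chromosome 16, whose peaks had signals of 292, 78.3, 31.2 and 30.3. The weakest of them lay 0.051 kb from a TSS of Zfp174, a zinc-finger gene.

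The peaks near Olfr genes had signals in the range of other peaks. Their median signal was 90 (quartiles 35.8 and 215), against 75.9 (34.5 and 225) for the other 71613 autosomal optimal peaks, and 55.2% of them lay above the median of the optimal list. The highest signals were 581 at the peak shared by Olfr94 and Olfr95, 516 at Olfr649, 462 at Olfr90, 445 at Olfr283 and 431 at each of 2 peaks near Olfr750. The lowest of all 143 was 16.3. Per gene, the strongest peak had a median signal of 118, with 133 among end genes (range 27.6 to 462) and 105 among interior genes (range 16.3 to 581). The ranges overlapped.

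The replicates ranked these peaks alike. Within 100 bases of the optimal summit, 142 of the 143 peaks had a summit in both replicates' own lists, of 300000 peaks each. The share of other optimal peaks matched in this way was not taken, so this count has nothing to be read against. At the peak of Olfr94 and Olfr95 the signals were 286 in replicate 1 and 297 in replicate 2. Olfr649 had 247 and 269, Olfr90 had 234 and 229, and Olfr283 had 231 and 215 in replicates 1 and 2. The Spearman correlation over the 142 peaks was 0.965. It describes peaks that the authors had selected on agreement between these same replicates. The exception was the peak at Olfr38 on chromosome 6, of optimal signal 19.1, which had 13.8 in replicate 1 and no matched summit in replicate 2.

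**Figure D3:**
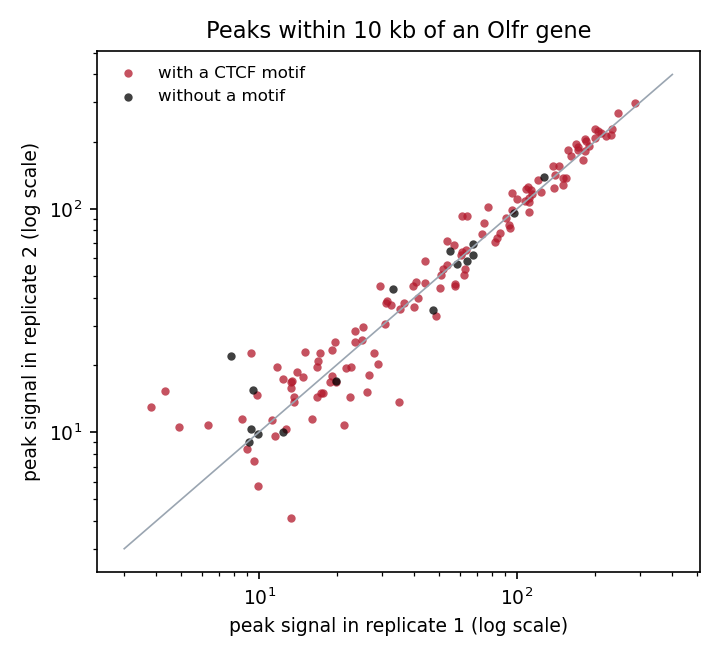
Each point is 1 of the 142 peaks within 10 kb of an Olfr gene that had a summit in both replicates, with its signal in replicate 1 (horizontal) against replicate 2 (vertical), both on log scales; red points have a CTCF motif, black points have none, and the grey line marks equal signals. Points lie along the line with a Spearman correlation of 0.965, and scatter most at the low end, where the signals go down to 3.81 in replicate 1 and 4.1 in replicate 2.

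A CTCF motif within 100 bases of the summit was found at 126 of the 143 peaks (88.1%, 81.8 to 92.4). Among other autosomal peaks not used to train the matrix the share was 70.3% of 66625. The threshold was the score that 5% of windows flanking the training peaks reached on either strand. Many CTCF peaks at promoters lack a motif, so the comparison was repeated with peaks over 10 kb from other genes: 89.7% of 116 peaks near Olfr genes (82.8 to 94), against 76.2% of 33944 other peaks. Among these distant peaks, the shares below a signal of 40 were 82.9% of 35 peaks (67.3 to 91.9) against 60.7% of 10784 other peaks. From 250 up they were 95% of 20 peaks (76.4 to 99.1) against 94%, within the interval. With the stricter 1% threshold the shares over all peaks were 52.4% against 38.7%. The strongest peak called without a motif, of signal 266 at Olfr571 and Olfr572, scored 9.305 and missed the threshold of 9.313 only narrowly.

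Motif direction showed no clear preference relative to the clusters. Of 47 motif-bearing peaks near an end gene, 26 pointed into the cluster (55.3%), and the interval of 41.2 to 68.6 spans an equal split. At the genes' strongest summits, 64 of 129 motifs lay on the strand of the gene. On the chromosome, 77 of 126 motifs lay on the minus strand (61.1%, 52.4 to 69.2), whereas 49.9% of motifs at other peaks were on the plus strand. In the cluster from Olfr30 to Olfr311, 6 of 7 motifs were on the minus strand. In the cluster from Olfr288 to Olfr279, 4 of 4 were. Neighbouring sites are not independent, and these 2 clusters were singled out after their values had been seen.

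The summits lay on both sides of the TSS and seldom at it. The strongest summit was upstream of the nearest TSS at 67 genes and downstream of it at 75, and it lay within the gene's own body at 24. The nearest summit was a median of 4.42 kb from a TSS (quartiles 2.12 and 7.03). Only 18 genes had one within 1 kb, which is 1.6% of all Olfr genes, against 46.7% of all protein-coding genes. The closest were Olfr15 at 0.006 kb, Olfr658 at 0.007 kb, Olfr628 at 0.013 kb, Olfr243 at 0.016 kb and Olfr545 at 0.078 kb. The genes just inside the 10 kb limit were Olfr263 at 9.925, Olfr1177-ps at 9.982 and Olfr465-ps1 at 9.984 kb. Just outside it stood Olfr463 at 10.227, Olfr97 at 10.27 and Olfr73 at 10.346 kb. Among the peaks, 38 summits fell in an Olfr gene body, and 9 of these fell in coding sequence, which in most receptor genes is a single exon.

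Some peaks lay far from any cluster end. Olfr1161 stood 98 genes into the chromosome 2 cluster with a weak peak of signal 23.0 inside the gene and no motif. Its signals were 12.4 in replicate 1 and 9.96 in replicate 2. In the same cluster Olfr1177-ps stood 85 genes from the end with a peak of 158, and Olfr1066 stood 58 genes from the end with one of 208. The peak at Olfr1066 had 111 in replicate 1 and 97.1 in replicate 2. On chromosome 7, Olfr243 stood 58 genes from the end with a strongest peak of 81.4. Olfr628 stood 57 genes from the end with a peak of 22.2. Apart from Olfr1161, each of these peaks had a motif.

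The chromosome 7 cluster from Olfr543 to Olfr692 spans chr7:102476579-105369355 and holds receptors of the class I type, which are related to those of fish, as well as 27 other coding genes. Those other genes include 5 beta-type globin genes and 12 Trim genes, members of the tripartite-motif family of ubiquitin ligases. Its 31 genes near a peak had strongest signals from 20.2 to 516, with a median of 102, and drew on 26 peaks. At its start, Olfr543 and Olfr544 had a strongest signal of 37.1 and Olfr545 one of 387. Further in, the genes from Olfr554 to Olfr558 formed a run of 5. The strongest peaks of that run had signals of 222 at Olfr554, 162 at Olfr555 and Olfr556, and 346 at Olfr557 and Olfr558. The short-chain fatty acid receptor Olfr78 shared a peak of 57.4 with Olfr560, with 23.6 in replicate 1 and 28.4 in replicate 2.

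Next to the globin genes, Olfr66 had a strongest peak of 130 and stood 29 kb from Hbb-y, the embryonic globin gene, while Olfr65 had 102 at 50.3 kb. Olfr632 and Olfr633, beyond them, shared a peak of 386. On the other side, Olfr629 stood 69.1 kb from Hbb-bt and shared the peak of 22.2 with Olfr628. Near other Trim genes, Olfr649 had the peak of 516, and Olfr652 and Olfr653 shared one of 70.6. Olfr655 followed with 364 and Olfr658 with 262. Towards the far end, Olfr675 and Olfr676 shared a peak of 43.3, Olfr677 and Olfr678 one of 20.2, and Olfr684 had one of 214. The remaining genes near a peak were Olfr550 with 34.0, Olfr571 and Olfr572 with 266, and Olfr586 with 80.2.

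The clusters held fewer peaks per Mb than their flanks. The 44 clusters covered 30.6 Mb with 272 peaks, or 8.89 per Mb, against 29.9 per Mb over chromosomes 1 to 19. Around the ends of the 22 clusters of over 10 genes, density was 11.4 per Mb in the first 20 kb inside (Poisson interval 5.45 to 20.9), against 34.1 (23.0 to 48.7) in the first 20 kb outside. It stayed low further in, at 9.85 per Mb from 20 to 50 kb and 3.64 from 50 to 100 kb, although it reached 14.5 (11.1 to 18.6) from 100 to 200 kb. Outside it was 35.6 per Mb (26.2 to 47.3) from 20 to 50 kb, 46.8 from 50 to 100 kb and 48.4 from 100 to 200 kb. Up to 50 kb outside, the intervals held the 29.9 per Mb of chromosomes 1 to 19.

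**Figure D4:**
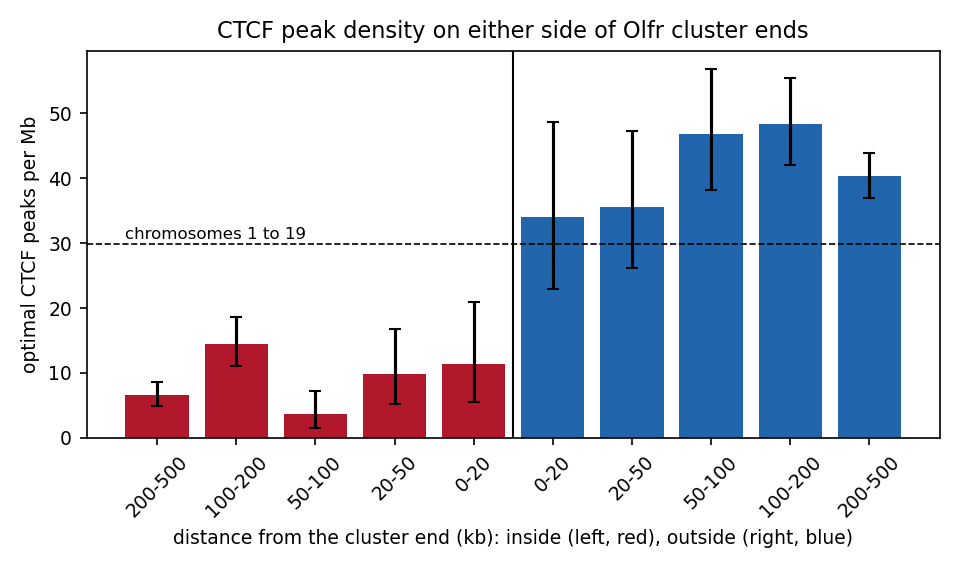
Bars give optimal CTCF peaks per Mb by distance in kb from the end genes of the 22 Olfr clusters of over 10 genes, inside the cluster in red on the left and outside it in blue on the right; error bars are 95% Poisson intervals and the dashed line is the density over chromosomes 1 to 19, 29.9 per Mb. The density is 11.4 per Mb in the first 20 kb inside and 34.1 per Mb in the first 20 kb outside.

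Inside the clusters, peaks were denser where genes of other families lay. Between neighbouring Olfr genes lay 51 stretches that held or overlapped another coding gene, 5.04 Mb in all, with 155 peaks, or 30.8 per Mb (26.1 to 36). The 1007 stretches without one covered 18.1 Mb and held 78 peaks, or 4.3 per Mb (3.4 to 5.37). Olfr genes near a peak stood a median of 35.3 kb from the nearest coding TSS outside the family (quartiles 18.4 and 87.8), against 150 kb (70.2 and 296) for those without. The share near a peak was 42.7% of 89 genes within 20 kb of such a TSS and 30.2% of 172 genes at 20 to 50 kb. It was 9.74% at 50 to 100 kb, 6.18% at 100 to 200 kb, 4.89% at 200 to 400 kb and 2.72% of 147 genes beyond 400 kb.

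The same order was seen with end genes left out. Interior genes alone gave 32.8% within 20 kb, 25.9% at 20 to 50 kb, 10.1% at 50 to 100 kb and 2.76% beyond 400 kb. End genes close to another gene had a summit more often than interior genes at the same distance, with intervals that just met: 63.3% of 30 end genes within 20 kb (45.5 to 78.1) and 50% of 32 at 20 to 50 kb (33.6 to 66.4). At 50 to 100 kb 1 of 15 end genes had a summit (6.67%, 1.19 to 29.8), against the 10.1% of interior genes. At 100 to 200 kb 1 of 8 had one (12.5%, 2.24 to 47.1), against 6.0% of 250 interior genes. Beyond 200 kb 0 of 3 had one. Beyond 50 kb the end genes were thus too few for a comparison with interior genes. Among end genes, those near a peak stood a median of 18.6 kb from an outside TSS, against 43.3 kb for those without. Among interior genes the medians were 46.5 kb against 163 kb. Of the 143 summits, 7 lay within 1 kb of a coding TSS outside the family and 27 within 10 kb. Their median distance to such a TSS was 26.7 kb. Of the 66625 other autosomal peaks not used in training, 12162 lay within 1 kb of a coding TSS of any family. That count leaves out the training peaks and takes in all coding TSSs, so it is not matched to the 7 of 143. Place in the cluster and distance to other genes cannot be told apart in full, since cluster ends face other genes.

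**Figure D5:**
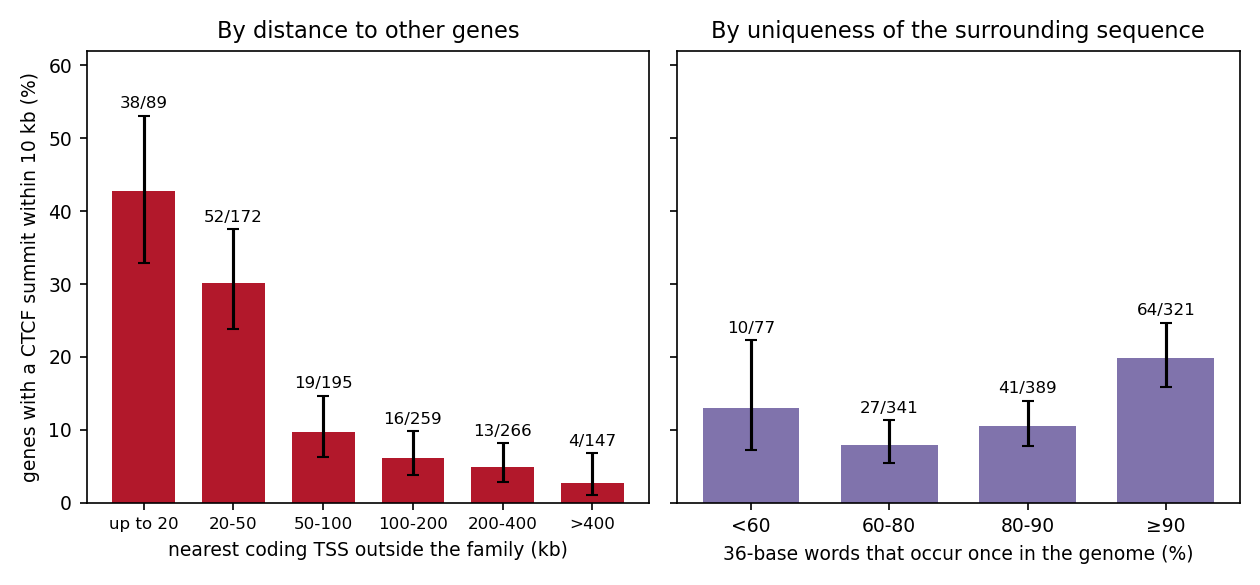
Bars give the percentage of Olfr genes with a CTCF summit within 10 kb of a TSS by the distance in kb from the gene to the nearest coding TSS outside the family (left) and by the percentage of 36-base words in the surrounding 20 kb that occur once in the genome (right); error bars are 95% Wilson intervals and the numbers above are genes with a summit over genes in the class. The share is 42.7% within 20 kb and 2.72% beyond 400 kb, and 19.9% where at least 90% of words are unique against 7.92% at 60 to 80%.

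Reads from near-identical gene copies may not be placed uniquely, so the share of unique sequence was measured in 20 kb around each gene's 5′ end. Genes near a peak had a median of 89.3% of 36-base words that occur once in the genome, against 83.6% for those without. With 50-base words the medians were 93.6% against 89.9%. The share of genes near a peak was 13.0% below 60% unique words (10 of 77 genes), 7.92% at 60 to 80%, 10.5% at 80 to 90% and 19.9% from 90% up. End genes exceeded interior genes in every class. In the most unique class 50% of 30 end genes and 16.7% of 288 interior genes had a summit, and below 60% the shares were 41.7% of 12 and 7.69% of 65. The part of unplaced reads in the missing peaks was not tested, and the read length is not given in the sources used here.

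At the peaks themselves sequence was mostly unique: the median peak near an Olfr gene had 100% unique 36-base words. In 4 of the 143 under 50% were unique (2.8%, 1.09 to 6.97), against 0.568% of other autosomal peaks. Those 4 were the peak of 70.1 at Olfr372, the peaks of 30.1 at Olfr243 and 22.2 at Olfr628, and one of 16.4 at Olfr544 and Olfr545. They were singled out after their values had been seen. For Olfr243 and Olfr628 this is the peak nearest the TSS, with 34.9% and 33.8% unique words, and its motif scored 12.0 at both. Olfr56 had the least unique surroundings of the genes near a peak, 5.96%. Its peak of 121 was unique throughout, but that peak lay near another of the gene's TSSs, outside the 20 kb measured.

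Base composition also moved with the peaks. GC content of the same 20 kb had a median of 40.5% for genes near a peak, against 37.5% for those without. The share near a peak was 1.93% of 207 genes under 36% GC, 8.68% of 680 at 36 to 40% and 32.8% of 241 genes from 40% up. From 40% up it was 65.2% of 46 end genes (50.8 to 77.3) and 25.3% of 190 interior genes (19.6 to 31.9). At 36 to 40% it was 17.9% of 39 end genes (8.98 to 32.7) and 8.16% of 637 interior genes (6.28 to 10.5), with overlapping intervals. Under 36%, 0 of 3 end genes and 1.96% of 204 interior genes had a summit. Masked repeats took a median of 34.6% of the window for genes near a peak, against 40.5%. The part of base composition in these differences was not tested. Gene length was similar, with medians of 6.34 kb and 5.94 kb, and both groups had a median of 2 TSSs per gene.

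Weaker peaks were found near some of the genes that the optimal list left without one. Near 262 of the 986 (26.6%) the pooled list had a summit within 10 kb, at a median signal of 5.39 and at most 36.7, where the median of the whole pooled list was 7.57. In all, 35.8% of Olfr genes had a pooled summit, against 88.1% of all protein-coding genes. Both replicates' lists had a summit within 10 kb of 191 of the 986 genes (19.4%). The share of all protein-coding genes for this count was not taken, so it has nothing to be read against. The conservative list called 12.5% of Olfr genes, against 73.4% of all protein-coding genes. These were not all the same genes as those of the optimal list. Of the 986 genes without an optimal summit, 8 had a conservative one within 10 kb (0.811%). The 986 genes lay a median of 116 kb from the nearest optimal summit, and the farthest, Olfr854, lay 818 kb away.

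Within 50 kb, 37.1% of Olfr genes had a summit, against 89.2% of all protein-coding genes, with 79.5% of end and 33.1% of interior genes. With only peaks above the median signal of 76.0, 87 Olfr genes remained within 10 kb (7.71%, against 57.5% of all protein-coding genes), at 29.5% of end and 5.82% of interior genes.

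Other genes of odour detection were set beside the receptors. Of 36 genes of olfactory signalling and receptor choice, 32 had a summit within 10 kb (88.9%, 74.7 to 95.6), against 74.4% of all protein-coding genes, which lies just below that interval. Their median strongest signal was 241, with no such median over all protein-coding genes set beside it. The list was written with earlier results of these data known. Examples above the median are Adcy3, the adenylyl cyclase of the olfactory cascade, at 289, and Kdm1a, a histone demethylase used in receptor choice, at 518. Ebf1, a transcription factor of olfactory neurons, had 476. Genes of the list with the lowest signals were Ano2 at 20.1, Smchd1 at 42.2 and Reep1 at 42.8. Those without a summit were Neurog1, Neurod1 and Lhx2, transcription factors, and Rtp2, which helps receptors reach the cell surface. Of the other receptor families, 9 of 15 trace amine receptor genes had one (60%), and the interval of 35.7 to 80.2 holds the 74.4% of all protein-coding genes. Of the vomeronasal receptor genes, 10 of 208 Vmn1r (4.81%, 2.63 to 8.62) and 2 of 119 Vmn2r genes (1.68%, 0.462 to 5.92) had one. Olfr genes of other biotypes, which are mostly pseudogenes, had a summit in 23 of 271 cases (8.49%).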

How the data were processed

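CTCF ChIP-seq peak lists of 2 replicates of newborn mouse intestine were used as deposited. Each peak carries a signal value, an enrichment that the authors' peak caller gave it, and a summit offset from the peak's start. Per the text files deposited with the samples, the replicate and pooled lists were called on mm10 alignments together with another file, whose role is not stated, and the IDR lists derive from them. The sources used here do not give the peak caller, IDR threshold, aligner or read length. The optimal, conservative and pooled lists share a range of signal values, from 4.48 to 756, and the replicate lists have lower ones.

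Genes came from GENCODE M21 and sequence from GRCm38.p6, in which every mm10 peak of chromosomes 1 to 19 ended within the length of its chromosome. Shares of genes were given 95% Wilson intervals, and densities Poisson intervals. Both cover counting error only. For the motif, optimal peaks of chromosomes 1 to 19 and X over 100 kb from any Olfr gene of chromosomes 1 to 19 were taken. The 19-base motif matrix was trained in 6 rounds on the 5000 strongest of them, with a pseudocount of 1. Olfr genes of chromosome X were not used to leave peaks out. Motif finding and word counting were tested on simulated data. Outside genes are coding genes without an Olfr symbol, OR5BS1P among them.

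Members and lists were chosen with earlier results of these data known. Named genes are those at the 6 strongest peaks, the 5 deepest members, the 3 on either side of the limit, the 5 with the nearest summit, the gene with most summits, those at the most shared peaks, the members of the cluster with most, the largest cluster with none and the first gene by number without a summit. Alternatives varied the window, list, cluster gap, end definition, biotypes, motif and word length, and left out each replicate. Python 3.11.15, numpy 2.4.6, pandas 2.3.3, scipy 1.17.1, numba 0.67.0 and matplotlib 3.10.9 were used.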

Additional observations from a re-analysis of the deposited data

How the results depend on the processing

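No result carries a test, so only movements of values are given. Of 75 values under alternatives, 56 stayed within the counting interval, or within 1.5 times a count, and 19 moved. With a 5 kb window 76 genes and 83 peaks were left, with 19.3% of end and 5.63% of interior genes. With 20 kb there were 223 genes and 17.0% of interior genes, and with 50 kb 418 genes, 395 peaks, 79.5% of end and 33.1% of interior genes and a median of 59.9 kb to an outside TSS. With peaks above the median signal there were 87 genes, 79 peaks, 29.5% and 5.82%. Counting from the gene's own 5′ end alone gave 31.8% of end genes. The 1% motif threshold gave 52.4%, and 50-base words 93.6%. Leaving the Olfr543 cluster aside, chosen after seeing the data, gave 8.19% of interior genes. In each of these settings that gave both shares, the share of end genes was above that of interior genes.

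With each replicate left out in turn, by taking as many peaks as the optimal list holds, the strongest first, from the other one's own list, the count of genes was 137 to 141, the share of end genes 42.0% in both, that of interior genes 9.51 to 9.89%, the motif share 87.4 to 89.3% and the peaks 135 to 140. No paired analysis was possible because the series has 1 group. Depth is unknown, so a weak peak that is missing may lie under the reach of the lists, and the lists end at 300000 peaks.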
